A study of Mus musculus with 4 samples.

Results

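Amd2 is listed in the mouse genome as a second copy of Amd1, the gene for S-adenosylmethionine decarboxylase, and its level was compared with those of the other genes that make, break down or regulate polyamines in Lgr5-GFP-high intestinal cells. The 10 genes were Amd1, Amd2, Odc1, Srm, Sms, Sat1, Azin1, Oaz1, Oaz2 and Smox, each 1 row among the 18436 gene symbols of the expression table. Amd2 was chosen by its rise in the comparison described here: among the 16 genes higher in the knockout that passed an adjusted p of 0.05 and a log2 fold change of 1, it had the 4th largest log2 fold change. Its difference between genotypes is therefore given as a description, with no test. The other 9 genes were chosen by their role in the pathway of Amd2, though with earlier results of these data known. For them limma's moderated test is given, adjusted over all 12621 genes whose mean FPKM reached 0.5.

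The cells came from 4 mice, 2 of them Lgr5-CREPT-WT and 2 Lgr5-CREPT-KO. Lgr5-CREPT-WT mice carried Lgr5-GFP-CreERT2, which places GFP and a tamoxifen-inducible Cre recombinase under the Lgr5 gene of intestinal stem cells, and Lgr5-CREPT-KO mice carried in addition the CREPT fl/fl alleles. CREPT, listed in the table under its gene symbol Rprd1b, is a protein that binds RNA polymerase II. Tamoxifen was injected into every mouse on 5 days (1 mg each day), and GFP-high cells were sorted on day 7, so both genotypes had active Cre and tamoxifen but only one of them had floxed alleles. The mice were on a C57BL/6 background and, by the description of animals for the whole study, 6 to 8 weeks old and of both sexes, with the age and sex of each mouse not given in the labels. The Lgr5-GFP allele is expressed in a mosaic of crypts.

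Putrescine, spermidine and spermine are small positively charged molecules that bind nucleic acids and are needed by dividing cells. Ornithine decarboxylase (Odc1) makes putrescine, S-adenosylmethionine decarboxylase (Amd1) makes the aminopropyl donor, and spermidine synthase (Srm) and spermine synthase (Sms) join them. Spermidine/spermine acetyltransferase (Sat1) and spermine oxidase (Smox) work in the opposite direction, while antizymes (Oaz1, Oaz2) send ornithine decarboxylase to the proteasome and the antizyme inhibitor (Azin1) binds antizyme in its place. The crypt, where stem cells and their progeny divide, is one of the tissues in which this pathway has long been studied.

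Amd1 and Amd2 are shown first because nearly all of their sequence is the same. In RefSeq on GRCm38.p6, Amd1 (gene 11702) lies at chr10:40287458-40302188. In GENCODE M21 it is on the minus strand, and its longest coding transcript has 8 exons and 3204 bases. Amd2 (gene 100041585) lies on the same chromosome, at chr10:35708691-35711891 in RefSeq. Its longest coding transcript in GENCODE M21 is on the minus strand and consists of 1 exon. Aligned over 3204 base pairs, the GENCODE transcripts of the genes differed at 14 bases, with a further 14 bases of Amd2 unaligned, an identity of 99.6%. The coding sequences, of 1002 bases each, differed at 1 base, written G796C, where the Amd1 base stands first and the position is counted from the first coding base. That base is the capital in the following 61 bases, coding positions 766 to 826.
Amd1: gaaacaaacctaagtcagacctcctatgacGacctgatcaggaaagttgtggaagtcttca
Amd2: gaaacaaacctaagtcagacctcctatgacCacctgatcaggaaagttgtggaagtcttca

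The bases in front of the genes, in contrast, were unlike each other, and they are shown because they are the part of each locus that lies outside the shared transcript. Both windows are the 250 bases before the RefSeq start on the minus strand of GRCm38.p6, from RefSeq, at chr10:40302189-40302438 for Amd1 and at chr10:35711892-35712141 for Amd2. Capitals mark matches on either strand to the TATA box forms TATAAA and TATATA, the E-box CACGTG, the GC box GGGCGG or the CCAAT box.
Amd1: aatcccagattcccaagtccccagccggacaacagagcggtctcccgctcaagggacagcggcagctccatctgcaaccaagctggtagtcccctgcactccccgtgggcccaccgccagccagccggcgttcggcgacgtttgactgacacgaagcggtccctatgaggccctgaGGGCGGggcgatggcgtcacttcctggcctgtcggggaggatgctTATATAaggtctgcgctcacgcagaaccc
Amd2: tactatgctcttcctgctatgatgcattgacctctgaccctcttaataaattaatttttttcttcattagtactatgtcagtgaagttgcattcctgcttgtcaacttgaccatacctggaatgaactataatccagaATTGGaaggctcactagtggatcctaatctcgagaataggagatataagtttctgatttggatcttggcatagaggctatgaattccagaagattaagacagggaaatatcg
The Amd1 window had a GC content of 64.4%, with GGGCGG starting at base -74 and TATATA at base -29, counted from the start. The Amd2 window had a GC content of 37.6% and a single match, to CCAAT on the opposite strand at base -112. The median GC content of all 32851 mouse windows was 52.4%, and GGGCGG was found in 32.7% of them, TATATA in 5.25%, CCAAT in 33.8%, TATAAA in 12.4% and CACGTG in 6.02%. No run longer than 7 bases was common to the Amd1 and Amd2 windows, whereas a run of 48 bases was shared just behind their starts. Windows were at hand for 8 of the 10 genes. Among the others, GGGCGG occurred 4 times in the window of Odc1, 2 times in that of Sat1, 3 times in that of Oaz2 and 6 times in that of Smox. Oaz1 had 1 CCAAT match and none of the other motifs. The windows of Odc1 (chr12:17544623-17544872) and Smox (chr2:131491612-131491861) end inside the gene coordinates given below, so they are not wholly in front of the gene. Sms, with 2 annotated starts, had 1 CACGTG and 1 CCAAT match in the window of one start and 4 GGGCGG matches in that of the other. No matches overlapped in the windows shown, and a match describes letters only.

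Since reads from identical stretches cannot be placed by sequence alone, the transcripts of each gene were cut into 50-base words and compared with those of all other genes of GENCODE M21. Of the words of Amd2, 85.7% also occurred in Amd1, which left 454 words that set Amd2 apart. Of the Amd1 words, 76.7% occurred in Amd2. With 100-base words the shares were 72.9% and 64.2%. The read length was not given in the sources used here, and how the quantification divided shared reads between the 2 genes was not tested. Amd-ps3 and Amd-ps4, processed copies that hold 25.6% and 21.3% of the Amd1 words, have no row in the table. Oaz1 was the only other member that shared more than a few percent of its words with a gene in the table: 21.0% of its words were in genes of the table, 20.1% in the pseudogene Oaz1-ps, and 92.1% of the Oaz1-ps words occurred in Oaz1. For Odc1 and Sms the shares with genes in the table were 2.35% and 2.05%. For Srm, Sat1, Azin1, Oaz2 and Smox they were 0. With genes that have no row counted too, the share was 24.3% for Odc1, 17.5% for Sms, 7.42% for Oaz2, 2.72% for Sat1 and 2.01% for Srm.

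**Figure D1:**
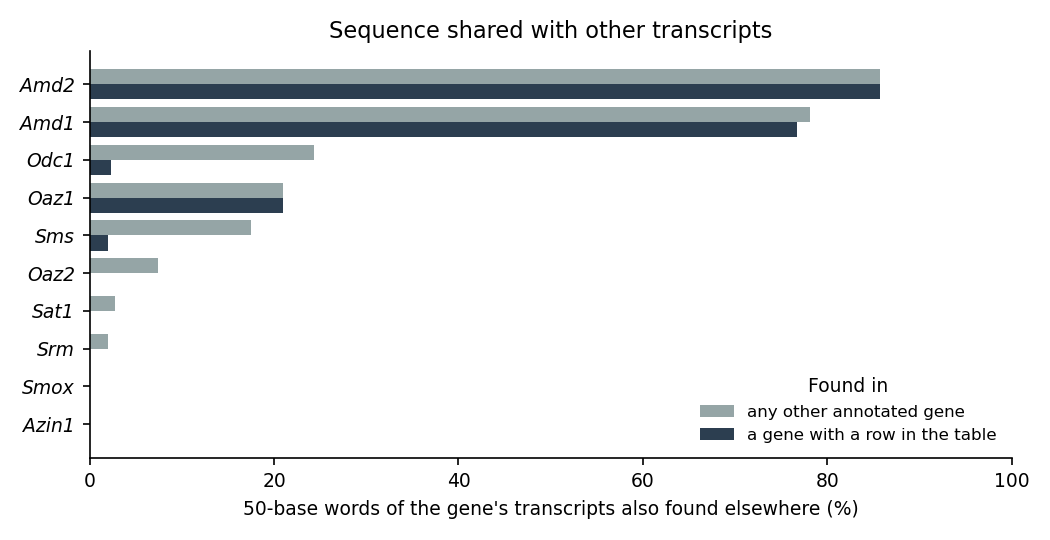
Share of the 50-base words in each gene's transcripts that also occur in another gene, in percent, for any annotated gene (grey) and for genes with a row in the expression table (dark). Amd2 and Amd1 stand at 85.7% and 76.7% of words shared with genes in the table, Oaz1 at 21.0%, and the others at 2.35% or less.

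In the level of expression the 10 genes covered a wide range. FPKM, the fragments of a gene scaled to its transcript length and to the mapped fragments of the library, corrects for transcript length, so levels can be set side by side. Oaz1 had the highest mean FPKM over the 4 mice (rank 207 of 18436 genes), followed by Odc1 (rank 764), Amd1 (rank 1313), Sat1 (rank 1849), Srm (rank 2132), Azin1 (rank 2680), Oaz2 (rank 3819), Sms (rank 5684), Smox (rank 7118) and Amd2 (rank 10112). The levels of Oaz1 in individual mice did not overlap those of any other member, and Odc1 was above Amd1 in every mouse. Amd1 was above Sat1 with little room between them, and the ranges of Sat1 and Srm and of Srm and Azin1 overlapped. Azin1, Oaz2, Sms, Smox and Amd2 followed in this order without overlap over the 4 mice.

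**Figure D2:**
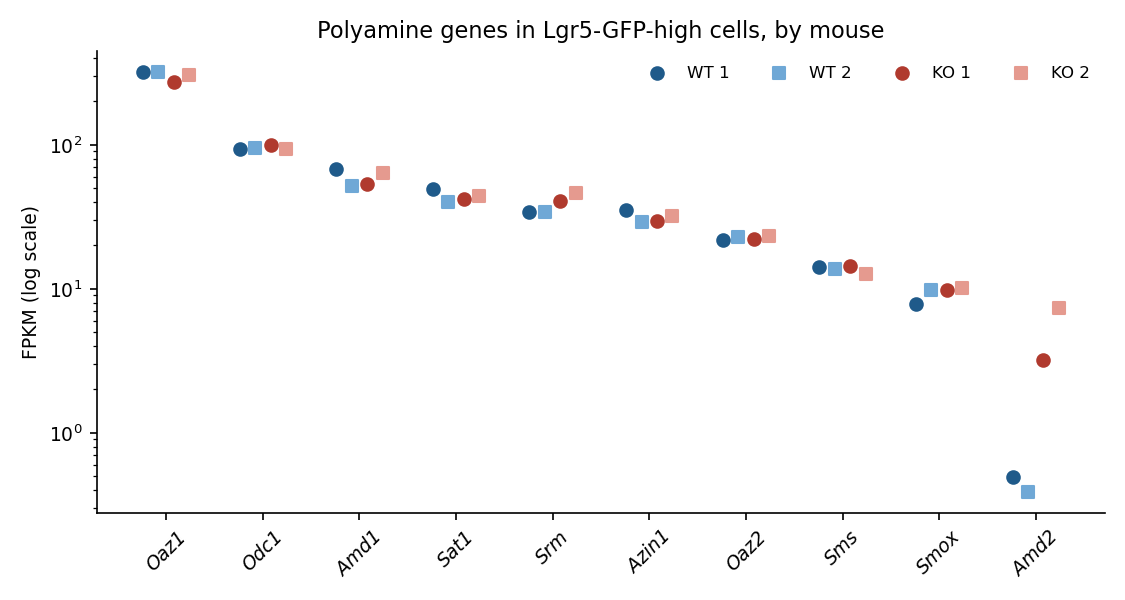
FPKM of the 10 polyamine genes on a log axis, 1 point per mouse (blue, Lgr5-CREPT-WT; red, Lgr5-CREPT-KO). Points of both genotypes lie close together for 9 genes, while Amd2 stands at 0.490 and 0.390 FPKM in the WT mice and at 3.18 and 7.35 FPKM in the KO mice.

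Amd2 was at 0.490 and 0.390 FPKM in the WT mice and at 3.18 and 7.35 FPKM in the KO mice. Both KO mice were thus above both WT mice, and KO mouse 2 was 2.31 times as high as KO mouse 1. The group means were 0.440 ± 0.0707 FPKM in WT and 5.27 ± 2.95 FPKM in KO (SD, n = 2 each), a ratio of means of 12.0 and a log2 difference of 2.52 on the log2(FPKM + 0.5) scale. These values chose the gene. Steps between the values of short RNA genes implied 17820000 to 19160000 reads per library, at which the Amd2 levels correspond to about 28.7 and 23.8 reads in the WT mice and to 192 and 417 reads in the KO mice. The implied reads are a conversion of FPKM and contain any reads that were shared out between Amd1 and Amd2.

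Amd1, the parent gene, was at 67.4 and 51.7 FPKM in the WT mice and at 53.8 and 63.3 FPKM in the KO mice. The genotypes overlapped, with means of 59.5 ± 11.2 and 58.6 ± 6.70 FPKM (SD, n = 2 each). The log2 fold change was -0.02 (SE 0.155, 95% interval -0.42 to 0.38, limma adjusted p = 0.964). This was the widest interval among the 9 genes tested.

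Added together, Amd1 and Amd2 were at 67.9 and 52.0 FPKM in the WT mice and at 57.0 and 70.6 FPKM in the KO mice. The sums overlapped between genotypes, and the log2 difference of the genotypes was 0.09. Leaving out WT mouse 1 or KO mouse 1 gave 0.28 or 0.25, and leaving out WT mouse 2 or KO mouse 2 gave -0.10 or -0.06, so the sign rested on single mice. Amd2 made up 0.721% and 0.749% of the sum in the WT mice, against 5.58% and 10.4% in the KO mice. Because the Amd2 difference entered the choice of the gene, neither the sum nor the share was tested. The difference in mean Amd2 level, 4.83 FPKM, was smaller than the gap of 15.8 FPKM between the Amd1 levels of the WT mice. A change of that size in the summed level lay within the spread of the WT mice.

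**Figure D3:**
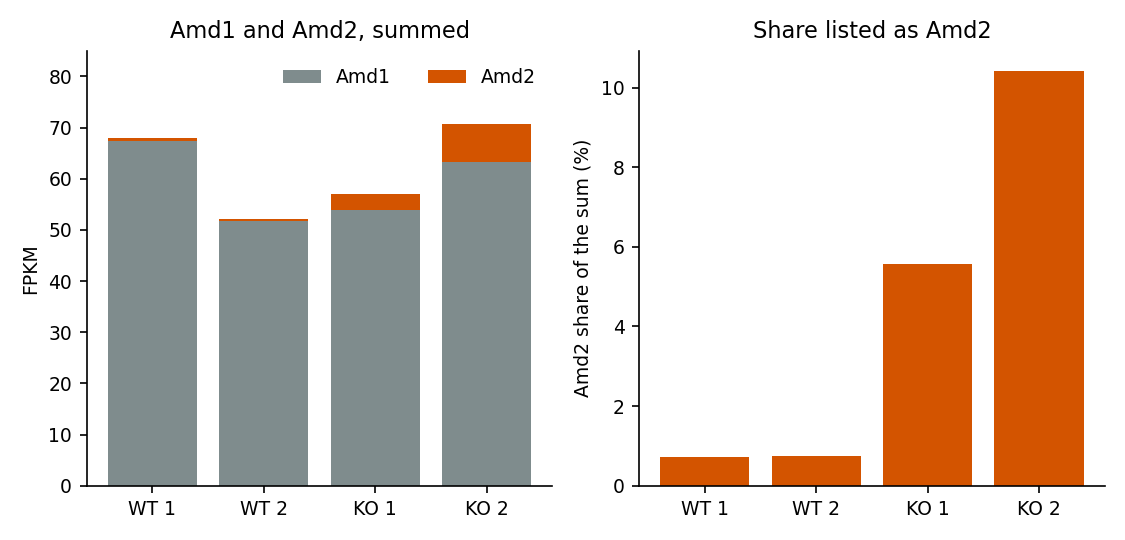
Left, stacked bars of Amd1 (grey) and Amd2 (orange) FPKM in each mouse; right, the percent of that sum listed as Amd2. The sums run from 52.0 to 70.6 FPKM with both genotypes intermixed, while the Amd2 share is below 1% in the WT mice and at 5.58% and 10.4% in the KO mice.

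None of the 9 genes other than Amd2 rose or fell at an adjusted p of 0.05. Over all genes tested the background was 0.412% called higher (52 genes) and 2.67% called lower (337 genes). At an unadjusted p below 0.05, 1 of the 9 was higher and 0 were lower, and over all genes 1170 (9.27%) were higher and 1916 (15.2%) lower. Both KO mice were above both WT mice for 2 of the 9 genes (Srm and Smox), beside 25.6% of all genes, and below them for 1 (Oaz1), beside 31.0% of all genes. The other 6 overlapped. Log2 fold changes ran from -0.16 to 0.32, with 4 positive and 5 negative values and a median of -0.02, where the median over all genes was -0.01. Their median size without regard to sign was 0.0460, and over all genes it was 0.175. Each of the 9 had a higher mean FPKM than at least 61% of the genes with a row. No set of genes matched on level was compared, so the 2 medians do not show that the 9 genes varied less than others. With 2 mice per genotype an exact permutation test of a single gene cannot give a two-sided p below 0.333, so the test across all genes, which pools the spread, is the one reported. The p-values measure only the spread between these samples.

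Among the genes of synthesis, Odc1 was nearly the same in all 4 mice. It was at 93.1 and 94.7 FPKM in WT and at 98.9 and 93.4 FPKM in KO, with a log2 fold change of 0.03 (SE 0.0687, 95% interval -0.14 to 0.21, adjusted p = 0.816). Odc1 (chr12:17544808-17551502) turns ornithine into putrescine and is the first enzyme of the pathway.

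Srm, which adds an aminopropyl group to putrescine, had the largest log2 fold change of the 9 genes. It was at 34.3 and 34.4 FPKM in the WT mice and at 40.5 and 46.0 FPKM in the KO mice. The WT mice were nearly equal and both KO mice lay above them. The log2 fold change was 0.32 (SE 0.0880, 95% interval 0.10 to 0.55) with an unadjusted p of 0.0141 and an adjusted p of 0.113 by limma, so Srm (chr4:148591513-148594619) was not called. No other gene of the 9 had an unadjusted p below 0.05.

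Sms, which makes spermine from spermidine with the same donor, was at 14.2 and 13.7 FPKM in WT and at 14.4 and 12.8 FPKM in KO. The genotypes overlapped (log2 fold change -0.04, SE 0.0979, 95% interval -0.29 to 0.21, limma adjusted p = 0.848). Sms (chrX:157443851-157492287) and Sat1 are on the X chromosome. Xist, the RNA of the inactive X, was at 100.5 and 93.7 FPKM in WT and at 169.2 and 125.3 FPKM in KO. The Y-linked gene Ddx3y was at 0.0200 FPKM or below in all 4 mice, so each mouse had the pattern of a female. The part of this Xist difference in the levels of Sms and Sat1 was not tested.

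The genes of polyamine breakdown did not pass the test either. Sat1 (chrX:155213126-155216449), which acetylates spermidine and spermine for export or oxidation, was at 49.3 and 40.1 FPKM in WT and at 41.8 and 44.4 FPKM in KO. Both KO values lay between the WT values (log2 fold change -0.05, 95% interval -0.35 to 0.26, adjusted p = 0.849). Smox (chr2:131491858-131525183), which oxidises spermine to spermidine, was at 7.88 and 9.80 FPKM in WT and at 9.84 and 10.2 FPKM in KO. The KO mice were higher, but KO mouse 1 exceeded WT mouse 2 by very little (log2 fold change 0.18, 95% interval -0.16 to 0.51, adjusted p = 0.455).

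Antizyme control was represented by 3 genes. Oaz1 (chr10:80826656-80829290), the most abundant antizyme transcript, was at 321.5 and 320.7 FPKM in WT and at 271.4 and 305.7 FPKM in KO. Both KO mice were below the WT mice, and the log2 fold change of -0.16 (SE 0.0844, 95% interval -0.37 to 0.06) had an adjusted p of 0.324. Oaz1-ps, which shares most of its sequence with Oaz1, was at 122.6 and 128.4 FPKM in WT and at 130.0 and 126.7 FPKM in KO (log2 fold change 0.03, adjusted p = 0.810). The sum of Oaz1 and Oaz1-ps was 444.1 and 449.1 FPKM in WT and 401.5 and 432.5 FPKM in KO, a log2 difference of -0.10, with 27.6% and 28.6% of it listed as Oaz1-ps in WT and 32.4% and 29.3% in KO. As for the Amd pair, the division of reads between Oaz1 and its copy is uncertain.

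Oaz2 (chr9:65676548-65690300), a second antizyme, was at 21.7 and 22.9 FPKM in WT and at 22.1 and 23.2 FPKM in KO. The values of the genotypes alternated (log2 fold change 0.02, 95% interval -0.18 to 0.22, adjusted p = 0.899). Azin1 (chr15:38487430-38519294), the antizyme inhibitor, was at 35.4 and 28.9 FPKM in WT and at 29.5 and 32.1 FPKM in KO. Its KO values lay between its WT values (log2 fold change -0.06, 95% interval -0.36 to 0.25, adjusted p = 0.819). In Amd1, Sat1 and Azin1, WT mouse 1 was the highest of the 4 and WT mouse 2 the lowest. This order was not particular to them and was also seen in Mat2a and in genes outside the pathway. Egr1, for example, was at 370.8 and 132.9 FPKM in WT and at 285.1 and 336.1 FPKM in KO.

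**Figure D4:**
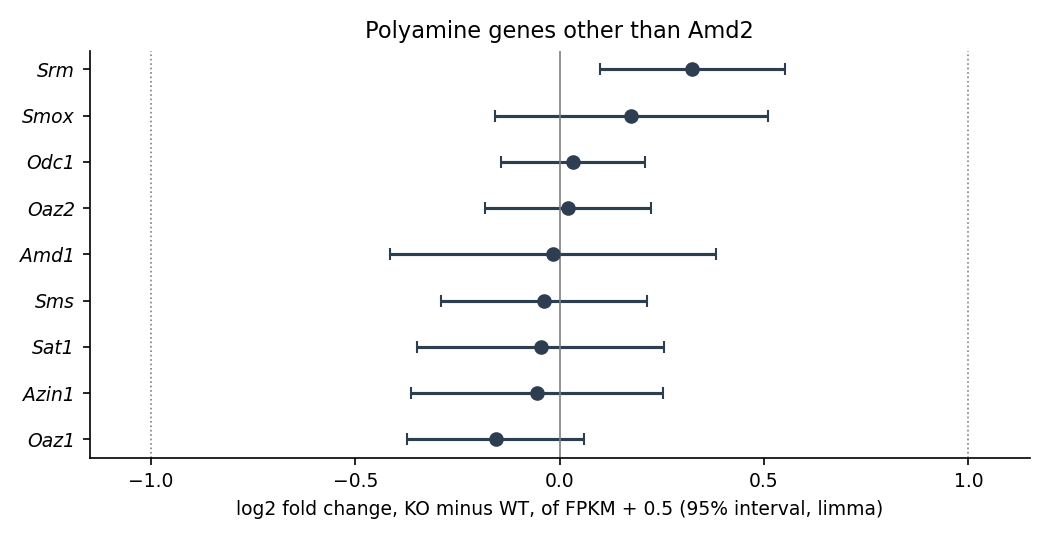
Log2 fold change (KO minus WT, of FPKM + 0.5) of the 9 genes other than Amd2, with limma's 95% interval as bars; dotted lines mark a log2 fold change of 1 in either direction. All intervals lie inside the dotted lines, and the interval of Srm, 0.10 to 0.55, is the only one that does not include 0.

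Around these genes, 40 further genes of the pathway were listed by role, of which all had a row and 35 were expressed above the filter. Of the 35, 0 were called higher and 1, Apip, was called lower, beside 0.412% and 2.67% of all genes. At an unadjusted p below 0.05, 5 were higher (14.3%) and 6 lower (17.1%), beside 9.27% and 15.2% of all genes. The median log2 fold change of the 35 genes was -0.03. Both KO mice were above both WT mice for 8 of them and below for 8 (22.9% each). These shares lay below the 25.6% and 31.0% of all genes. Of all 12621 genes tested, 6016 had a positive and 6605 a negative log2 fold change. The sign counts of the lists that follow are to be read beside these numbers and were not tested.

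Apip belongs to the methionine salvage pathway, which returns the methylthioadenosine left by spermidine and spermine synthesis to methionine. It was at 9.01 and 9.23 FPKM in WT and at 5.64 and 5.13 FPKM in KO. Both KO mice were well below both WT mice (log2 fold change -0.71, SE 0.104, limma adjusted p = 0.0438). The call was lost when any 1 mouse was left out, as was every other call of the comparison, with an adjusted p between 0.180 and 0.299 for Apip, and over all alternatives the adjusted p was between 0.0376 and 0.299. Of the 8 genes of S-adenosylmethionine supply and methionine salvage, 7 had a negative and 1 a positive log2 fold change, with a median of -0.06. The most highly expressed of them, Mat2a, which makes the S-adenosylmethionine that Amd1 consumes, was at 78.1 and 59.6 FPKM in WT and at 64.4 and 68.5 FPKM in KO (adjusted p = 0.895).

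The list named ornithine supply held 7 genes, with 3 positive and 4 negative log2 fold changes, a median of -0.06 and none called. Among the negative ones were Otc (-0.31), which uses ornithine, and Agmat (-0.35), which makes putrescine from agmatine. The counts are therefore not those of supply alone. Oat, the mitochondrial ornithine aminotransferase, was the most abundant, at 1173 and 982 FPKM in WT and at 1348 and 1441 FPKM in KO. Both KO mice were above both WT mice (log2 fold change 0.38, limma adjusted p = 0.137). Arg1, the arginase that releases ornithine from arginine, had the most negative value of the 35 genes and was chosen after its values were seen. It was at 1.77 and 1.89 FPKM in WT and at 0.770 and 0.610 FPKM in KO (log2 fold change -0.97, adjusted p = 0.0713).

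Of the 6 expressed genes of polyamine transport, 5 had a positive and 1 a negative log2 fold change, with a median of 0.19 and none called. Slc3a2, the heavy chain of amino acid transporters that has also been linked to polyamine export, had the highest level, at 46.0 and 49.0 FPKM in WT and at 51.2 and 45.9 FPKM in KO (adjusted p = 0.869). Atp13a2, a pump that carries polyamines out of the lysosome, had the highest log2 fold change of the 35 genes and was chosen after its values were seen. It was at 11.8 and 13.2 FPKM in WT and at 17.2 and 16.8 FPKM in KO (log2 fold change 0.43, limma adjusted p = 0.0779).

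Spermidine also provides the group that turns a lysine of Eif5a into hypusine. Eif5a was at 512.5 and 531.8 FPKM in WT and at 496.3 and 508.3 FPKM in KO (log2 fold change -0.06, adjusted p = 0.675), and all 3 expressed genes of hypusination had negative values, with none called. Aoc1, the diamine oxidase that degrades putrescine, was at 70.4 and 74.8 FPKM in WT and at 74.1 and 74.7 FPKM in KO (adjusted p = 0.802), and neither of the 2 expressed genes of its list was called. Of Myc and its partners, 5 of 9 had a positive log2 fold change and none was called. Myc, a transcription factor known to act on Odc1, was at 74.7 and 91.0 FPKM in WT and at 101.6 and 109.4 FPKM in KO. Both KO mice were above both WT mice (log2 fold change 0.35, SE 0.115, limma adjusted p = 0.151), while the levels of Odc1 overlapped.

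**Figure D5:**
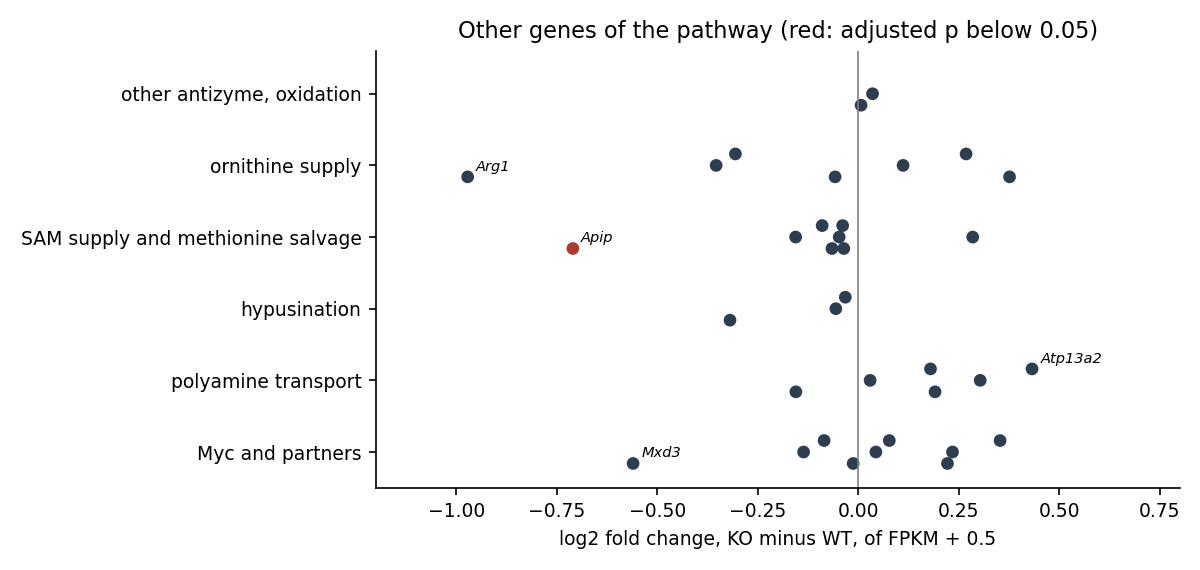
Log2 fold change (KO minus WT, of FPKM + 0.5) of the 35 expressed genes of 6 pathway lists, 1 point per gene, with the gene called at an adjusted p below 0.05 in red. Apip at -0.71 is the only red point, and Arg1 at -0.97 and Atp13a2 at 0.43 lie furthest out.

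Rprd1b, the targeted gene, was at 17.7 and 18.1 FPKM in WT and at 6.65 and 7.36 FPKM in KO (log2 fold change -1.29, limma adjusted p = 0.0280), a level that can include transcripts that have lost the floxed part. The cells carried stem cell markers, with Lgr5 at 37.7 to 60.1 FPKM and Olfm4 at 4932 to 5351 FPKM. All 6 stem cell markers listed lay higher in both KO mice, with none called (limma adjusted p from 0.0601 to 0.685). Other genes in the paper's stem cell signature went both ways. Gkn3 was at 128.2 and 91.9 FPKM in WT and at 54.1 and 49.9 FPKM in KO. It was called lower (limma adjusted p = 0.0496). Kcne3 also lay lower in both KO mice, while Aqp1 and Kcnq1 lay higher. The rest of that signature was not tallied. Over all genes, 25.6% lay above and 31.0% below in both KO mice, while 0.412% were called higher and 2.67% called lower. The marker counts that follow are to be read beside these shares. The summed level of 10 enteroendocrine markers was 180 to 205 FPKM in WT and 55.2 to 67.9 FPKM in KO, with 10 of 10 lower in both KO mice and 6 called lower, and that of 8 goblet markers was 1470 to 2451 FPKM against 807 to 939 FPKM, with 7 of 8 lower and 1 called. Tuft markers summed to 17.2 and 33.9 FPKM in WT against 14.4 and 5.87 FPKM in KO, with 5 of 6 lower and none of the 4 tested called. The 8 immune and stromal markers summed to between 4.86 and 8.63 FPKM in all mice, with 2 of 8 lower. Most of that sum was Cd68, at 4.20 to 6.50 FPKM. Ptprc was at 0.400 and 0.770 FPKM in WT and at 0.140 and 1.35 FPKM in KO. Cd3e was at 0.920 and 1.70 FPKM in WT and at 0.230 and 2.02 FPKM in KO. Enterocyte markers summed to 744 and 900 FPKM in WT against 548 and 867 FPKM in KO, with 2 of 10 lower and none called. The 6 Paneth markers with a row summed to 1394 and 1005 FPKM in WT and to 830 and 2445 FPKM in KO. Of the 6, 5 were highest in KO mouse 2, as were 7 of the 10 enterocyte markers. The part of these marker levels in the Amd2, Srm or Apip values was not tested. In a sorted population, fewer cells of a type and less RNA per cell cannot be told apart.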

How the data were processed

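RNA of sorted Lgr5-GFP-high cells of 4 mice (2 Lgr5-CREPT-WT, 2 Lgr5-CREPT-KO) was sequenced on BGISEQ-500. The authors deposited FPKM values per gene symbol and mouse, made with Bowtie2 and RSEM on GRCm38.p6 transcripts. The submitters' processing notes also name HISAT and mm10. RSEM divides reads that fit several transcripts by a model, which bears on near-identical genes. Columns were matched to mice by name. Genotypes were compared on log2(FPKM + 0.5) for the 12621 of 18436 genes whose mean FPKM reached 0.5, by limma 3.58.1 in R 4.3.3 (lmFit, eBayes with trend), with Benjamini-Hochberg adjustment over all of them and a threshold of 0.05. Fold changes on this scale understate those of low genes. The study's count model was not used because the table holds FPKM.

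The members and gene lists were chosen with earlier results of these data known. The genes named are the 10 members, Rprd1b, pathway genes with an adjusted p below 0.05, the most abundant gene of each pathway list, Myc, Lgr5, Olfm4, Xist and Ddx3y. Oaz1-ps, Amd-ps3 and Amd-ps4 were added as copies of members. Arg1, Atp13a2, Gkn3, Kcne3, Aqp1, Kcnq1, Egr1, Otc, Agmat, Cd68, Ptprc and Cd3e were added after their values were seen. Coordinates and windows before starts came from RefSeq and transcripts from GENCODE M21, both on GRCm38. Reads per library were estimated from 333 genes of 55 to 150 bases, whose FPKM values of up to 4 reads fell on whole reads within 0.03 of a read in 85.5% to 89.3% of cases, so the depth is an estimate. Python 3.11.15 and Biopython 1.88 were used for sequences. The pseudocount, the filter, the scaling, the trend, the replicate block and each mouse left out were varied.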

Additional observations from a re-analysis of the deposited data

How the results depend on the processing

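The number of called genes changed under several alternatives. Over all genes, 52 were higher and 337 lower, 16 and 128 of them past a log2 fold change of 1. With no filter on mean FPKM, 0 were higher and 0 lower (unadjusted p below 0.05 in 1320 and 2250). With no intensity trend, 0 were higher and 4 lower, all 4 past the fold change, and leaving out each mouse gave 0 to 0 in either direction. The cause was not tested. Same-numbered mice are different animals, their deviations correlated at -0.0266, and with the replicate block 15 genes were higher and 168 lower, 8 of the higher past the fold change. Quantile normalization gave 66 higher and 273 lower, a higher share of 19.5% against 13.4%, and moved the median of all genes from -0.01 to 0.04. Of the 9 members other than Amd2, 0 were called in either direction under every alternative run. Apip, the 1 other pathway gene called lower, was called in 0 of these settings: no filter (adjusted p = 0.128 by limma), quantile normalization (0.0547), no trend (0.0688), the replicate block (0.0667) and each mouse left out (0 to 0 calls). Rprd1b kept its direction, with a log2 fold change of -1.36 to -1.23 and an adjusted p of 0.0227 to 0.295. Under quantile normalization the log2 fold changes of Amd1 and Sat1 became 0.0382 and 0.00510. Leaving out 1 mouse gave -0.21 to 0.17 for Amd1, -0.19 to 0.10 for Sat1, -0.00869 to 0.0739 for Odc1, -0.12 to 0.0465 for Sms, -0.20 to 0.0862 for Azin1 and -0.0171 to 0.0595 for Oaz2, so these signs rest on single mice. For the sum of Amd1 and Amd2 the log2 difference was -0.10 to 0.28. Srm stayed between 0.23 and 0.41 (adjusted p 0.0877 to 0.370), Smox between 0.03 and 0.32 and Oaz1 between -0.24 and -0.05. The log2 difference of Amd2 was 3.20 with a pseudocount of 0.1, 2.04 with a pseudocount of 1 and 1.97 to 3.06 with 1 mouse left out. With 1 mouse left out, the lone mouse of a genotype is assumed to vary like the other genotype.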
